A study of Mus musculus with 9 samples.

Results

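The comparison described here was between heterozygous kidneys carrying a Foxd1-Cre allele and kidneys without Cre, and it used 6 of the 9 RNA-seq libraries of the study. Members were chosen by genotype alone: the 3 libraries of Foxd1GC/+;Ntn1fl/+ kidneys (HET-1, HET-2 and HET-3) and the 3 libraries of Ntn1fl/fl kidneys (WT-1, WT-2 and WT-3). The 3 remaining libraries, from Foxd1GC/+;Ntn1fl/fl kidneys (MUT), were used where the other genotype helped to place a value. All kidneys were taken whole at E15.5 from mice on the C57Bl6/J background, and all came from crosses of Ntn1fl/fl with Foxd1GC/+;Ntn1fl/+ animals.

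The genotypes differed in more than a single way. In Foxd1GC, a GFP-Cre cassette sits in the Foxd1 gene, so HET and MUT kidneys had 1 intact Foxd1 allele and expressed Cre in the Foxd1 lineage, which gives rise to renal stroma, mural cells and renin cells. HET kidneys carried 1 floxed and 1 unmodified Ntn1 allele, MUT kidneys carried 2 floxed Ntn1 alleles with Cre, and WT kidneys carried 2 floxed Ntn1 alleles that no Cre could recombine. A difference between HET and WT can therefore follow the Cre, the Foxd1 dose or the Ntn1 dose, and these cannot be told apart. Because whole kidneys were measured, fewer cells of a type and less RNA per cell cannot be told apart either.

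Ntn1 encodes netrin 1, a secreted guidance ligand of axons and vessels that is bound by neogenin and by receptors of the Unc5 family. In the fetal kidney, Foxd1 is a transcription factor of the stromal progenitors that surround the caps of nephron progenitors, and it is the gene whose promoter drives Cre here. Renin cells and vascular smooth muscle descend from these stromal progenitors, whereas podocytes and tubules descend from the nephron progenitors.

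Levels are given as FPKM, fragments scaled to transcript length and to the total of mapped fragments. Differences are HET minus WT on log2(FPKM + 1), a scale that understates the change of low loci, and the error given with a difference is its standard error from limma. Of 24138 loci in the table, 10105 had a mean of at least 5 FPKM in HET or WT and were tested. The summed FPKM of the 6 libraries lay between 453753 in WT-1 and 545598 in WT-2. Read totals are not part of the table, so the depth is unknown.

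Several libraries stood apart from the others before any comparison of genotypes. HET-2 was the highest of all 9 libraries by more than 2-fold at 43 loci of at least 5 FPKM, of which 20 belonged to a list of 25 liver genes, 3 to an erythroid list and 3 to a list of chromaffin and sympathetic genes. HET-3 stood out in the same way at 20 loci, and 16 of them belonged to a list of 24 skeletal muscle genes. HET-1 did so at 1 locus. WT-2 stood out at 39 loci, 36 of them named as small RNAs, and its rough relative depth was the lowest, at 0.57 of that of WT-1. HET-3 had 187 FPKM of Xist, the RNA of the inactive X chromosome, whereas HET-1, HET-2 and the 3 WT libraries had at most 1.25, so the sexes were not matched between the groups. Deviations of a library from the others followed transcript GC content, with a Spearman rho across loci from −0.648 in WT-3 and −0.578 in HET-3 to 0.529 in HET-2. They also followed transcript length, with a rho from −0.349 in HET-1 and −0.28 in HET-2 to 0.355 in WT-1 and 0.371 in MUT-1.

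HET-2 held most of the liver signal. Alb, which encodes albumin, was at 1.83, 244 and 4.77 FPKM in HET-1, HET-2 and HET-3 and at 0.213, 0.737 and 1.197 in the WT libraries. Afp, which encodes the fetal plasma protein alpha-fetoprotein, was at 29.3, 217 and 23.9 FPKM against 31.0, 32.3 and 43.5 in WT. Apoa1, an apolipoprotein of plasma lipid particles, was at 0.950, 88.4 and 1.13 FPKM against 0.540, 0.920 and 0.573. For Alb and Apoa1 the HET and WT libraries did not overlap, yet HET-2 alone was far above the rest, and for Afp the HET-1 and HET-3 values were below every WT value.

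Summed over the 25 liver loci, the level was 53.7, 995 and 51.3 FPKM in the HET libraries, 47.8, 51.5 and 65.0 in WT and 39.1, 66.1 and 48.3 in MUT. All 10 tested members had a higher HET mean, with a median difference of 1.56. Without HET-2 the median was 0.25 and 6 of the 10 were higher. Testing required a mean of at least 5 FPKM in HET or WT. Members such as Alb and Apoa1 reached it only through HET-2, so their higher HET mean followed from that minimum. The count of 10 therefore does not show a direction of the list. The chromaffin and sympathetic list summed to 9.04, 37.9 and 13.1 FPKM in HET and 10.5, 12.9 and 12.5 in WT, so HET-2 was again the single high library. The erythroid list, which holds globins and red cell membrane genes, summed to 1958, 3111 and 1833 FPKM in HET and 1808, 1964 and 1854 in WT.

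Skeletal muscle genes showed the same form in HET-3. Actc1, the cardiac and fetal skeletal muscle actin, was at 7.97, 10.3 and 62.8 FPKM in the HET libraries and 5.77, 3.41 and 5.38 in WT, so that HET-3 was far above HET-1 and HET-2, which were themselves above every WT library. Mylpf, a fast muscle myosin light chain, was at 3.66, 4.95 and 60.0 FPKM against 5.65, 2.56 and 3.54. Acta1, the skeletal muscle actin, was at 0.496, 1.46 and 41.5 FPKM against 1.47, 0.476 and 1.54. In Mylpf and Acta1, the HET-1 and HET-2 values lay within the WT range.

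The sum over the 24 muscle loci was 34.2, 44.2 and 355 FPKM in HET, 36.3, 25.8 and 31.6 in WT and 23.9 to 44 in MUT. All 11 tested members had a higher HET mean with a median difference of 1.12. The median was 0.12 without HET-3, when 7 of the 11 were higher. Members such as Acta1 and Mylpf reached the minimum for testing only through HET-3, so their higher HET mean also followed from that minimum. No locus of the adrenal cortex, gonad, adipose or gut and pancreas lists reached the minimum level.

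**Figure D1:**
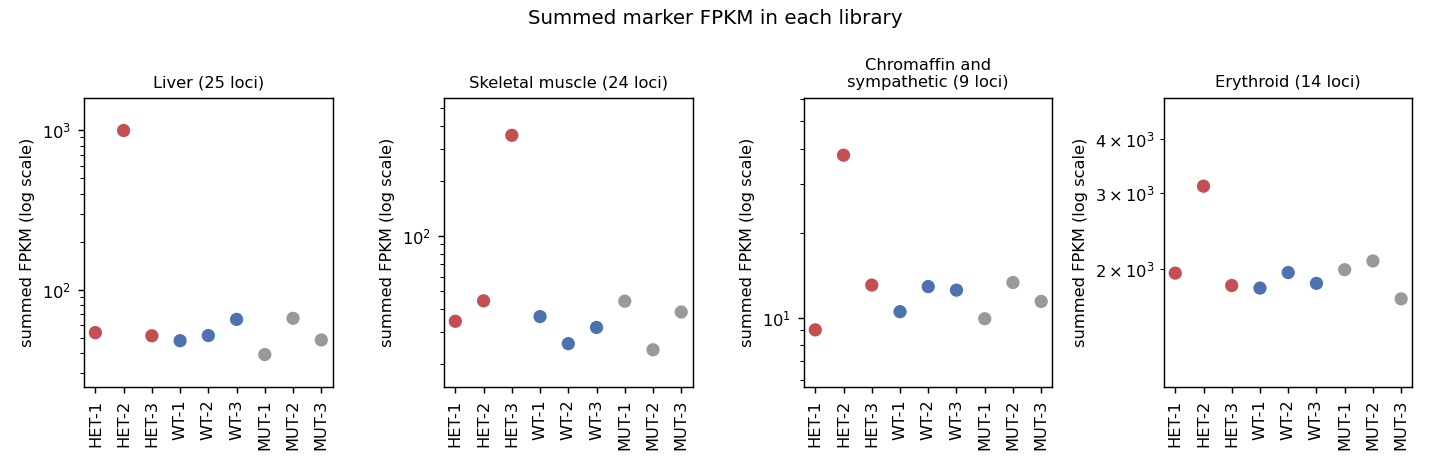
Summed FPKM, on a log axis, of the liver, skeletal muscle, chromaffin and sympathetic, and erythroid lists in each of the 9 libraries, 1 point per library. HET-2 stands at 995 FPKM for the liver list and HET-3 at 355 FPKM for the muscle list, while the other libraries lie at 39.1 to 66.1 and 23.9 to 44.2.

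No locus differed between HET and WT past the threshold. The smallest adjusted p in limma with Benjamini-Hochberg adjustment over the 10105 loci was 0.978, so 0.0% of loci were called. The HET mean was higher at 52.4% of the loci tested. An unadjusted p under 0.05 was found at 55 loci with a higher HET mean (0.544% of those tested) and at 53 with a lower one (0.524%). Together these 108 loci were 1.07% of those tested. That is below the 5%, or 505 loci, which such a cut would pass on average if no locus differed. The loci described below by a small unadjusted p were therefore not called. All 3 HET libraries were above all 3 WT libraries at 217 loci (2.15%) and below them at 107 (1.06%). Such a lack of overlap has a two-sided p of 0.1 in an exact permutation test of 3 against 3. If no locus differed, a share of 0.1 would lack overlap on average, in either direction, which is more than found here. Lack of overlap alone therefore singles out no locus. The median difference over the loci tested was 0.01, the central 95% of differences lay between −0.30 and 0.23, and the median standard error was 0.13.

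Of the 55 loci with a higher HET mean, HET-2 was the highest of the 6 libraries at 40, HET-1 at 7 and HET-3 at 8. Of the 53 with a lower HET mean, HET-3 was the lowest library at 27 and WT-3 the highest at 29. Loci chosen for such a difference have HET libraries at one end, and over all 10105 loci HET-2 was the highest at 1790, HET-3 the lowest at 881 and WT-3 the highest at 2799. The median transcript GC content was 54.9% in the first set and 47.4% in the second, against 50.8% over the loci tested. The median transcript length was 1023 bases in the first set and 1609 in the second, against 1283 over the loci tested. No correction for length was run, and its part in these differences was not tested. After a GC correction of each library, 81 of the 108 loci still had an unadjusted p under 0.05 in the same direction. The corresponding number was 62 without HET-2, 79 without HET-3 and 38 when HET-1 alone was set against WT.

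**Figure D2:**
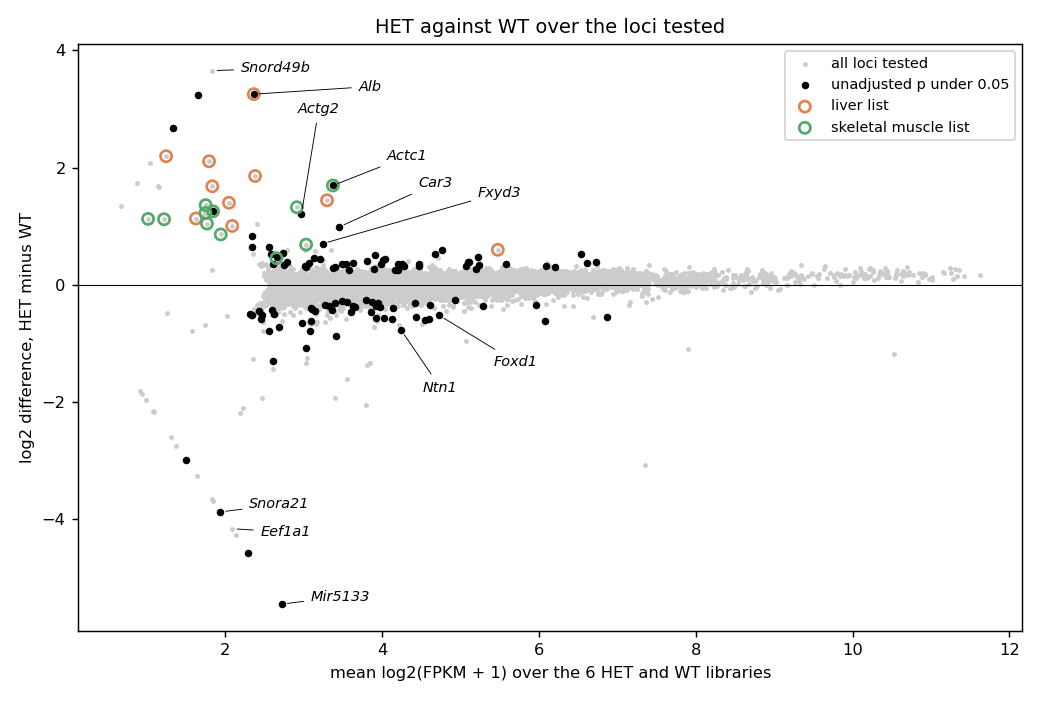
Log2 difference, HET minus WT, against the mean log2(FPKM + 1) of the 6 libraries for the 10105 loci tested. Black points are the 108 loci with an unadjusted p under 0.05, and open circles mark liver and skeletal muscle loci. Most loci lie close to 0, and the points far below it at low levels, such as Snora21, are mostly small RNAs listed at 0 in some libraries.

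Ntn1 and Foxd1, the genes altered by the alleles, were both lower in the HET libraries. Ntn1 (mm10, chr11:68209364-68386826) was at 12.3, 12.02 and 16.5 FPKM in HET-1, HET-2 and HET-3 and at 26.1, 28.9 and 17.8 in WT-1, WT-2 and WT-3. The groups did not overlap, although HET-3 and WT-3 differed by little. The ratio of mean FPKM was 0.561 and the difference −0.78 ± 0.18 (unadjusted p = 0.00133, adjusted p = 0.998), and the exact permutation test of 3 against 3 gave its smallest possible two-sided p, 0.1. The MUT libraries, at 10.8, 16.5 and 11.04 FPKM, overlapped with HET. The FPKM of the whole locus does not separate recombined from intact alleles, and no library stands for a single cell type.

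Foxd1 (mm10, chr13:98354245-98356705) was at 21.7, 20.2 and 21.5 FPKM in HET and at 33.7, 33.4 and 25.8 in WT. The HET values lay close together and below every WT value. The ratio of means was 0.682 and the difference −0.52 ± 0.12 (unadjusted p = 0.00167, adjusted p = 0.998, exact permutation p = 0.1). MUT kidneys, which share the Foxd1GC allele, had 24.8, 22.5 and 24.3 FPKM, above every HET library and below every WT library. Leaving out any of the 6 libraries kept the Ntn1 difference between −0.97 and −0.64 and the Foxd1 difference between −0.64 and −0.46. In HET-1, the library without the liver or muscle signal, the differences from WT were −0.90 for Ntn1 and −0.48 for Foxd1.

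Neighbouring genes were examined for both loci. Within 5 Mb of Foxd1, 44 loci were tested, 20 with a higher and 24 with a lower HET mean, and none had an unadjusted p under 0.05. Within 5 Mb of Ntn1, 99 loci were tested, 62 higher and 37 lower, with median 0.03. Aspa, an aminoacylase, was the only neighbour of Ntn1 with an unadjusted p under 0.05. It was at 7.23, 7.74 and 5.04 FPKM in HET and 7.51, 8.39 and 13.0 in WT, overlapping groups with a single high WT library.

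Other netrins and netrin receptors were less different than Ntn1 itself. The 6 others tested had a lower HET mean, with a median of −0.13. With Ntn1 and without WT-1, 2 of the 7 were higher. The receptor genes Unc5b, Unc5c, Neo1 and Mcam had differences of −0.19 ± 0.16, −0.09 ± 0.16, −0.02 ± 0.12 and −0.05 ± 0.11, with overlapping groups in each. Unc5b was at 14.1, 14.3 and 13.5 FPKM in HET and 21.5, 15.4 and 12.7 in WT, so its lower mean rested on WT-1, and without that library the difference was 0.0008. The locus that joins Ntng2, which encodes a membrane-anchored netrin G, with 6530402F18Rik was at 4.36, 4.85 and 3.40 FPKM against 9.23, 5.15 and 5.19, with no overlap and a difference of −0.50 ± 0.22 (unadjusted p = 0.0451), which was −0.26 without WT-1. The locus that joins Ntn3 with Tbc1d24 had a difference of −0.17 ± 0.14.

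**Figure D3:**
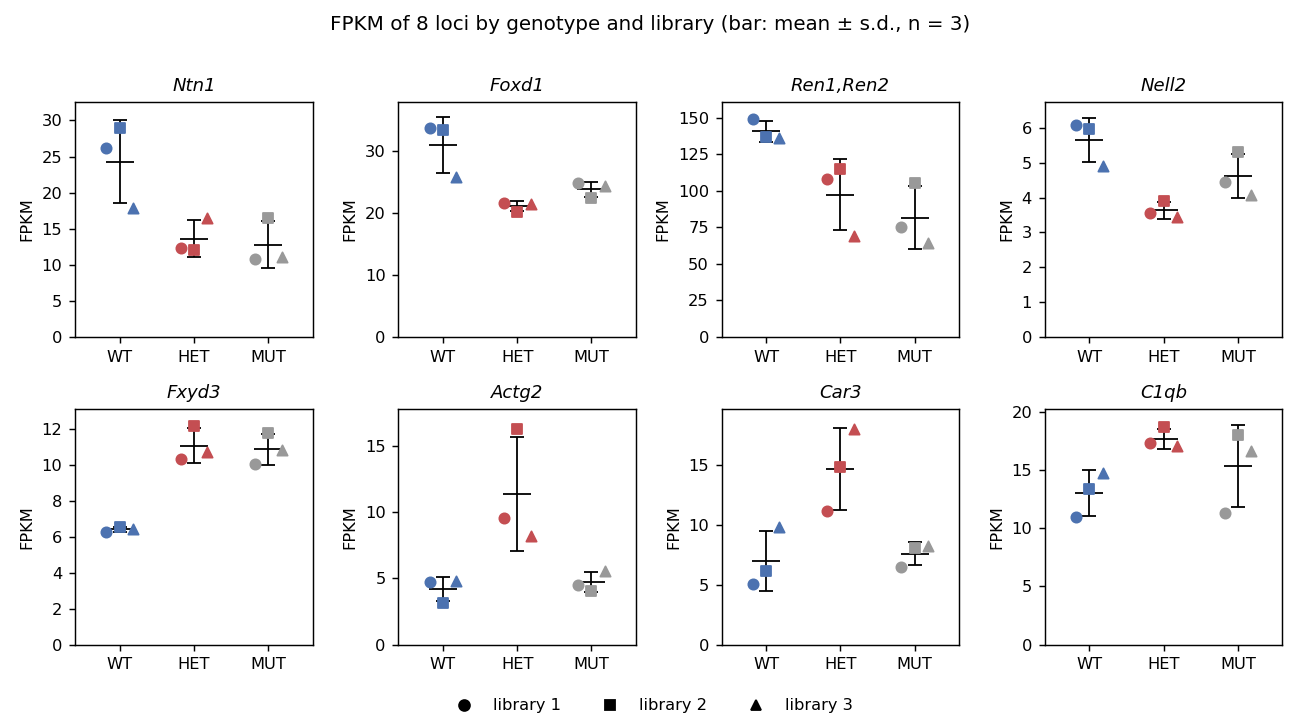
FPKM of Ntn1, Foxd1, Ren1/Ren2, Nell2, Fxyd3, Actg2, Car3 and C1qb in each library, with the mean and s.d. of 3 libraries per genotype. HET lies below WT for the first 4 loci and above it for the last 4, and MUT lies with HET for Ntn1, Ren1/Ren2 and Fxyd3 but with WT for Actg2.

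Renin, a protease made by renin cells of the Foxd1 lineage, was lower in the HET libraries. The locus that joins Ren1 and Ren2 was at 108, 115 and 69.4 FPKM in HET and at 149, 137 and 136 in WT, without overlap. Its difference was −0.56 ± 0.18 (unadjusted p = 0.0107, adjusted p = 0.998), with HET-3 the lowest of the 6, and it was −0.33 without HET-3. MUT libraries had 75.2, 106 and 64.3 FPKM, also below every WT value. The names Ren1 and Ren2 are joined at this 1 locus, and no separate level is given for either name.

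The other members of the renin-angiotensin list differed less than the renin locus. Of the 6 tested loci of the whole list, renin included, 5 had a lower HET mean, with a list median of −0.29. An unadjusted p under 0.05 was found at 3 of the 6, all lower, against 0.524% of all loci tested. Akr1b7, an aldo-keto reductase of renin cells, was at 16.01, 14.8 and 12.4 FPKM in HET and 14.5, 23.4 and 20.6 in WT (−0.39 ± 0.17), and here HET-1 and HET-2 exceeded WT-1. The angiotensin receptor genes Agtr1a and Agtr2 had differences of −0.13 ± 0.17 and 0.05 ± 0.17, both with overlapping groups.

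Several smooth muscle genes had higher levels in the HET libraries than in both other genotypes. Actg2, the gamma actin of smooth muscle (mm10, chr6:83512909-83536251), was at 9.59, 16.3 and 8.24 FPKM in HET, 4.71, 3.16 and 4.79 in WT and 4.53, 4.06 and 5.55 in MUT. Every HET library was above all 6 others, and HET-2 was the highest. The difference from WT was 1.21 ± 0.23 (unadjusted p = 0.000318, adjusted p = 0.998). It was 0.94 without HET-2 and 1.04 when HET-1 was used alone. Against the mean of WT and MUT the difference was 1.14 ± 0.20. The adjusted p of Actg2 in that limma comparison, 0.904, was shared by many other loci, Car3 and Foxd1 among them.

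Myh11, the smooth muscle myosin heavy chain, was at 5.61, 7.33 and 6.18 FPKM in HET and 4.27, 2.54 and 4.59 in WT (0.64 ± 0.20). MUT had 4.77, 3.16 and 3.70 FPKM, so the HET libraries were again above the other 6. Tpm2, a tropomyosin of smooth and skeletal muscle, was at 51.7, 54.7 and 52.5 FPKM against 41.5, 43.4 and 39.1 (0.35 ± 0.11). Des, the muscle intermediate filament desmin, was at 19.6, 19.99 and 22.1 FPKM against 14.4, 18.6 and 14.99 (0.35 ± 0.12), with HET-3 the highest. Neither locus overlapped between HET and WT.

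Other members of the list were less distinct. Acta2, the alpha actin of smooth muscle, was at 72.7, 95.0 and 66.6 FPKM in HET and 57.6, 54.7 and 72.1 in WT, and its overlapping groups differed by 0.33 ± 0.16. Tagln, an actin-binding protein, differed by 0.11 ± 0.14 and Cald1, caldesmon, by −0.09 ± 0.14. Of all loci tested, 52.4% had a higher HET mean, and 0.544% had a higher mean with an unadjusted p under 0.05. Over the 10 tested smooth muscle loci, 8 had a higher and 2 a lower HET mean, and the median was 0.28. An unadjusted p under 0.05 was found at 4 of them, all higher. Without HET-2 the median was 0.15 with 6 of 10 higher. Des and Tpm2 are also expressed in skeletal muscle, whose markers were high in HET-3, and the part of that signal was not tested.

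**Figure D4:**
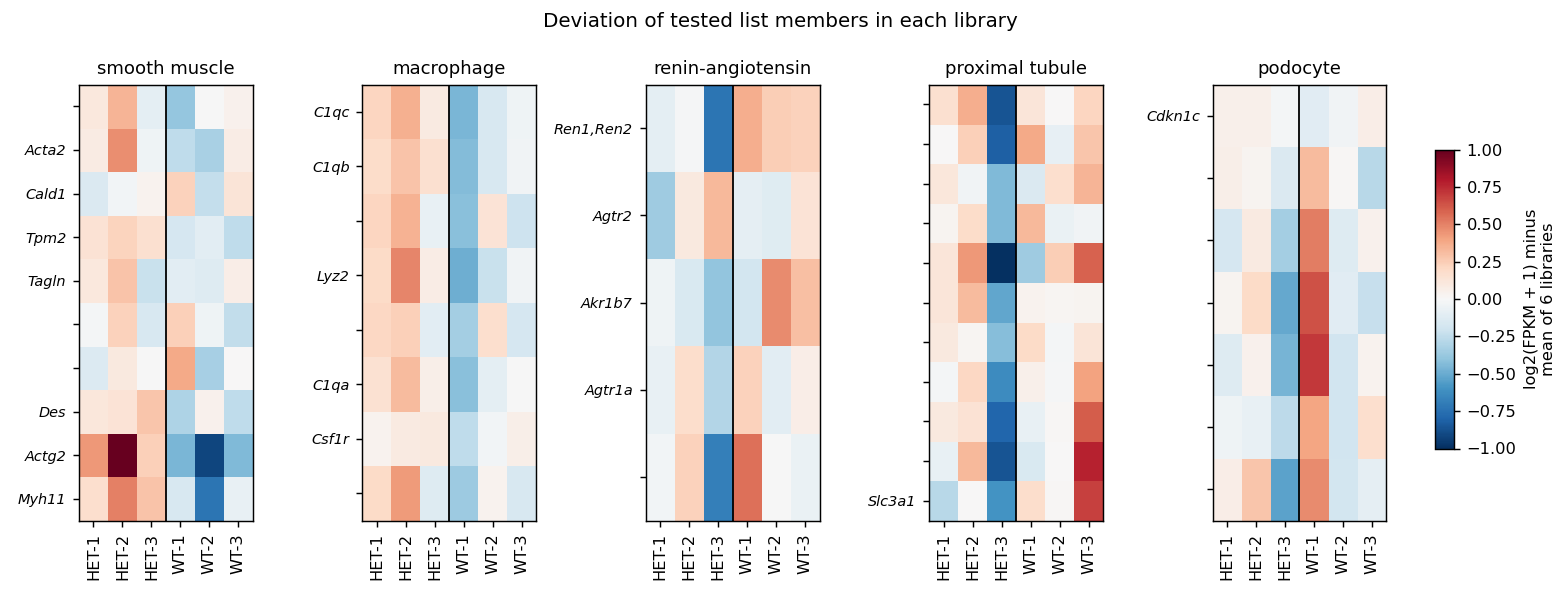
Heat map of the deviation of each locus from its mean over the 6 libraries, on log2(FPKM + 1), for tested smooth muscle, macrophage, renin-angiotensin, proximal tubule and podocyte members in HET-1 to HET-3 and WT-1 to WT-3, with the genes named in the text labelled. HET-2 is the highest library for Actg2, Myh11 and Acta2, HET-3 is the lowest for the proximal tubule members, and WT-1 is the lowest for the macrophage members.

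Car3, which encodes carbonic anhydrase 3, and Fxyd3 were also without overlap between HET and WT. Car3 (mm10, chr3:14863538-14872373) was at 11.2, 14.8 and 17.97 FPKM in HET and 5.04, 6.17 and 9.82 in WT, a difference of 0.99 ± 0.22. MUT had 6.47, 8.07 and 8.20 FPKM, all below the lowest HET library. Car3 is also expressed in skeletal muscle and fat. Its level was highest in HET-3, the library with muscle markers, and the part of that signal was not tested. Fxyd3, a small regulator of the sodium pump (mm10, chr7:31059935-31076697), was at 10.3, 12.2 and 10.8 FPKM in HET and 6.29, 6.56 and 6.41 in WT. The spread within each group was small, the difference was 0.70 ± 0.12 with the smallest unadjusted p of the comparison, 1.03e-04 (adjusted p = 0.978), and MUT was at 10.1, 11.8 and 10.8, level with HET.

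Krt19, Plet1 and Sprr2g had higher means in both HET and MUT than in WT. Krt19, a keratin of simple epithelia, was at 32.1, 33.8 and 24.4 FPKM in HET, 17.97, 21.7 and 21.5 in WT and 25.1, 30.6 and 33.1 in MUT (0.53 ± 0.14 for HET against WT). Plet1, a surface protein of epithelial progenitors, was at 14.9, 15.8 and 14.7 FPKM in HET and 10.6, 12.3 and 10.5 in WT, and reached 23.3, 14.7 and 21.6 in MUT. Sprr2g, of the small proline-rich family, was at 5.71, 6.65 and 5.05 FPKM in HET, 2.21, 4.26 and 2.27 in WT and 11.4, 6.09 and 11.3 in MUT. At each of the 3 loci every HET library was above every WT library, and HET overlapped with MUT. Sprr2g has close copies nearby, and how reads were shared between them is uncertain.

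Macrophage genes had a higher HET mean at all 8 tested members. C1qb, a chain of complement C1q made by tissue macrophages (mm10, chr4:136880145-136886177), was at 17.3, 18.7 and 17.1 FPKM in HET and 10.95, 13.4 and 14.8 in WT, without overlap (0.42 ± 0.12, unadjusted p = 0.00574, adjusted p = 0.998). C1qc was at 18.04, 20.03 and 16.5 FPKM against 10.9, 13.7 and 14.97 (0.44 ± 0.13), and C1qa differed by 0.35 ± 0.14. Lyz2, the lysozyme of myeloid cells, was at 16.1, 20.1 and 14.8 FPKM against 9.70, 11.9 and 13.6 (0.50 ± 0.15). WT-1 was the lowest library for each of these 4 genes.

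The median over the 8 macrophage loci was 0.34, and it stayed between 0.23 and 0.44 with 8 of 8 higher when any library was left out. The summed level of the 13 listed macrophage loci was 118, 131 and 111 FPKM in HET and 79.6, 102 and 102 in WT. In MUT it was 83.3, 132 and 113, so MUT-2 and MUT-3 lay near HET and MUT-1 near WT-1. Csf1r, the receptor that macrophages need for survival, differed by only 0.15 ± 0.13. The median was 0.25 without HET-2, the library with the liver and red cell signals.

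Differentiated nephron segments had lower HET means, which followed HET-3 to a large degree. All 12 tested proximal tubule loci were lower, with a median of −0.31, and without HET-3 the median was −0.06 with 4 of the 12 higher. The summed level of the 14 listed loci was 285, 310 and 170 FPKM in HET, 279, 290 and 356 in WT and 216, 374 and 200 in MUT. HET-1 and HET-2 lay within the range of WT, and HET-3 lay below it. Slc3a1, a subunit of the cystine transporter, was at 3.52, 4.49 and 2.63 FPKM in HET and 5.20, 4.52 and 7.80 in WT (−0.58 ± 0.23), with HET-2 and WT-2 almost equal.

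Several of the loci with a lower HET mean and no overlap are expressed in tubules. Sult1d1, a sulfotransferase, was at 21.5, 19.5 and 15.8 FPKM in HET and 24.9, 25.6 and 37.0 in WT (−0.59 ± 0.17), and MUT ranged from 15.4 to 51.9. Kcnj16, an inwardly rectifying potassium channel subunit, was at 9.52, 9.64 and 8.97 FPKM against 12.6, 11.2 and 16.4 (−0.46 ± 0.14). Aadat, an aminotransferase of lysine and kynurenine metabolism, was at 14.4, 14.6 and 8.80 FPKM against 16.6, 18.8 and 21.1 (−0.57 ± 0.18). Mep1b, the beta subunit of the brush border protease meprin, was at 7.20, 6.57 and 4.28 FPKM against 7.97, 9.16 and 12.02 (−0.62 ± 0.19). WT-3 was the highest library at all 4 loci and HET-3 the lowest, and the GC correction left Sult1d1 at −0.34. Cdkl1, a protein kinase gene, was at 10.2, 9.94 and 9.90 FPKM against 13.8, 11.2 and 15.4 (−0.38 ± 0.12).

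Podocyte genes were similar. Of 8 tested loci, 7 had a lower HET mean, with a median of −0.22 that shrank to −0.09 without HET-3 and to −0.04 without WT-1. Cdkn1c, a cell cycle inhibitor of podocytes, was at 490, 491 and 465 FPKM in HET and 438, 460 and 494 in WT (0.06 ± 0.12). In the loop of Henle and distal tubule list, 6 of 7 loci were lower with a median of −0.13, but the median was 0.01 with 4 of 7 higher without HET-3 and −0.01 without WT-1. Slc12a1, the salt cotransporter of the thick ascending limb, was at 19.2, 19.7 and 15.3 FPKM against 33.6, 19.6 and 32.2 (−0.60 ± 0.19), and WT-2 lay within the HET range.

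Stromal genes apart from Foxd1 did not share a direction. Of the 17 others tested, 10 had a higher and 7 a lower HET mean, and their median was 0.05. The summed level of the 20 listed loci, Foxd1 included, was 1348, 1493 and 1362 FPKM in HET and 1240, 1295 and 1281 in WT. These sums, to which abundant loci contribute most, did not overlap (exact permutation p = 0.1, the smallest possible). In MUT the sum was 1258, 1308 and 1316 FPKM. Dcn and Lum, proteoglycans of interstitial matrix, differed by 0.39 ± 0.15 and 0.47 ± 0.15. Dcn was at 103, 136 and 126 FPKM in HET and 99.5, 78.4 and 98.2 in WT with no overlap, whereas Lum overlapped. Meis1, Tcf21 and Pdgfrb, which mark stroma or its derivatives, differed by 0.05 ± 0.11, 0.17 ± 0.12 and −0.09 ± 0.18.

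Endothelial loci numbered 20, of which 6 had a higher and 14 a lower HET mean with a median of −0.05, and none had an unadjusted p under 0.05. Without WT-1 the endothelial median was 0.04 and 13 of 20 were higher. Nephron progenitor loci had a median of 0.07, and Osr1, a transcription factor of the earliest renal progenitors, was at 17.4, 17.1 and 16.1 FPKM in HET and 13.1, 14.8 and 11.4 in WT (0.35 ± 0.11). The medians of the ureteric tip, collecting duct and early nephron lists were 0.06, 0.01 and 0.01. Leaving out 1 library turned the sign of these 3 medians and of the nephron progenitor median, for example without WT-3, where the tip, early nephron and nephron progenitor medians were −0.0047, −0.16 and −0.0017, and without HET-1, where the collecting duct median was −0.07. In the retinoic acid list, Aldh1a3, an enzyme of retinoic acid synthesis, was at 22.04, 19.1 and 20.7 FPKM against 15.4, 18.4 and 15.4 (0.32 ± 0.11), and the list median was 0.06. The Notch list had a median of −0.04 over 13 loci and the canonical Wnt list a median of −0.04 over 40. Without WT-1 these medians were 0.08 and 0.07, and without WT-3 they were −0.19 and −0.16. The Notch median was 0.04 without HET-3.

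Differences of housekeeping groups were small. All 81 tested cytosolic ribosomal protein loci had a higher HET mean with a median of 0.17, and none had an unadjusted p under 0.05. Without WT-1 the median was 0.04 and 59 of the 81 were higher, and after quantile normalisation of all 6 libraries it was also 0.04. Oxidative phosphorylation loci were higher at 73 of 79 with a median of 0.11, and mitochondrial ribosome loci at 74 of 77 with a median of 0.10. Both medians were −0.01 without WT-1, which had the lowest summed FPKM. Cell cycle loci were higher at 20 of 23 with a median of 0.05, and splicing factors at 75 of 110 with a median of 0.03. Without WT-1 these became 10 of 23 with a median of −0.04 and 52 of 110 with a median of −0.0032.

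**Figure D5:**
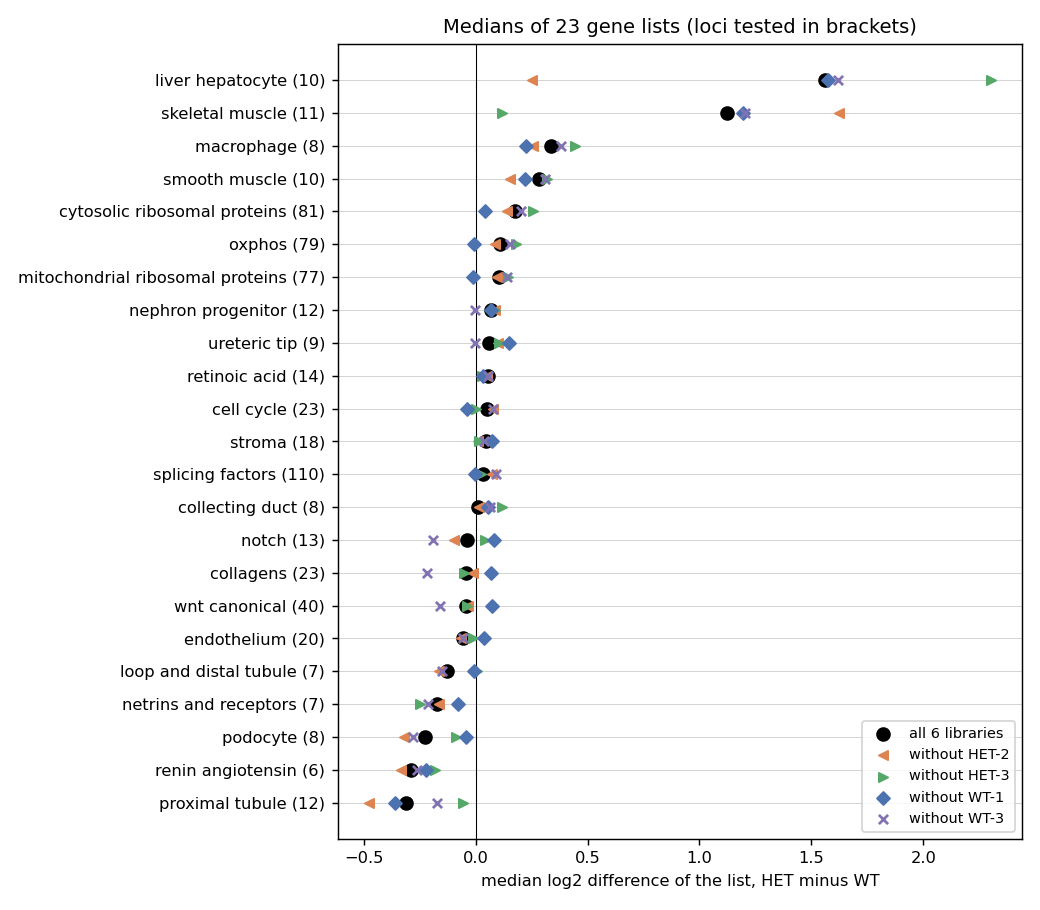
Median log2 difference, HET minus WT, of 23 gene lists with all 6 libraries and without HET-2, HET-3, WT-1 or WT-3 in turn. The liver median falls from 1.56 to 0.25 without HET-2 and the muscle median from 1.12 to 0.12 without HET-3, while the macrophage median stays between 0.23 and 0.44.

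HET kidneys were also set against the mean of WT and MUT over all 9 libraries and 10164 loci. No adjusted p was under 0.05, and the smallest was 0.904. At an unadjusted p under 0.05, 133 loci had a higher HET level (1.31%) and 110 a lower one (1.08%). Every HET library was above all 6 others at 70 loci (0.689%) and below them at 25 (0.246%). Standing apart from all 6 others was counted and not tested. Pdlim3, a PDZ and LIM domain protein of muscle, was among the first, at 4.48, 6.24 and 5.46 FPKM in HET against 2.17 to 3.75 in WT and 3.49 to 3.996 in MUT (0.55 ± 0.17).

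Below all others were Foxd1, Nell2 and Cacng7. Nell2, a secreted glycoprotein of neural tissue (mm10, chr15:95219440-95528252), was at 3.55, 3.91 and 3.45 FPKM in HET, 6.08, 5.96 and 4.91 in WT and 4.45, 5.31 and 4.07 in MUT, a difference of −0.39 from the mean of both and of −0.52 from WT. Cacng7, a subunit associated with calcium channels and glutamate receptors, was at 17.03, 18.1 and 18.4 FPKM against 23.8, 20.2 and 18.9 in WT and 22.97, 25.8 and 21.6 in MUT (−0.29 ± 0.09). HET-3 was within 1 FPKM of WT-3 for this gene. Tnrc18, Bahcc1 and Kdm6b, which encode chromatin proteins, had differences of −0.73, −0.52 and −0.48 from the mean of WT and MUT, each with its highest values in WT-1 and MUT-1.

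Loci listed at exactly 0 were kept in the fit, although an exact 0 can be a failed estimate. Of the tested loci, 39 were listed at 0 in at least 1 of the 6 libraries, and 37 of them were named as small RNAs. Among the 108 loci with an unadjusted p under 0.05, 1 with a higher and 4 with a lower HET mean were of this kind. Snora21, a small nucleolar RNA, was listed at 0 in all 3 HET libraries and at 9.13, 59.8 and 4.14 FPKM in WT, and in MUT it was listed at 0 in MUT-1 and MUT-2 and at 5.94 in MUT-3, so no fold is given for it as a result, although the fit includes it. Eef1a1, a translation elongation factor of every cell, was listed at 0 in 7 of the 9 libraries and at 5735 FPKM in WT-2 and 5691 in MUT-3.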

How the data were processed

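Total RNA of whole E15.5 kidneys (3 per genotype, from 3 separate crosses) was extracted with TRIzol and sequenced from TruSeq Stranded mRNA libraries on an Illumina instrument. The deposited values are FPKM of 24138 loci, which the authors obtained with CuffDiff after STAR alignment and transcript assembly (cufflinks, then cuffmerge). They entered the analysis without rescaling. The submitters' processing notes name mm10. Tool versions and the annotation are not given in the sources used here. The table gives starts counted from 0, and positions are printed counted from 1. At 355 loci several gene names are joined. The 3 columns of group averages were not used. Library depth is not part of the table, which leaves counting error unquantified. A rough relative depth came from the steps of low values.

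Groups came from the labels. Loci whose mean reached 5 FPKM in HET or WT were compared on log2(FPKM + 1), pseudocount 1, with limma 3.58.1 in R 4.3.3 (lmFit, then eBayes with a trend, 3 HET and 3 WT libraries, no block), two-sided, with Benjamini-Hochberg adjustment and a threshold of 0.05. HET was also contrasted with the mean of WT and MUT over 9 libraries. Single values were tested with an exact permutation test, whose smallest p for 3 against 3 is 0.1. The code was tested on simulated data. Kidneys of a genotype are separate samples, but no source ties a library number to a cross. The mice were of both sexes.

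The comparison and the gene lists were chosen with earlier results of these data known, so counts over a list are descriptions. The genes named are Ntn1, Foxd1 and netrins and their receptors, the 10 loci of smallest unadjusted p per direction whose groups do not overlap (no locus passed the adjusted threshold), for each list up to 4 members of highest mean level, the loci by which a HET library stood furthest above the rest, and the 8 loci of smallest p per direction against WT and MUT together. Other list members (Myh11, Des, Tagln, C1qa, Akr1b7, Agtr1a, Slc3a1, Slc12a1, Dcn, Lum, Osr1, Aldh1a3, Csf1r, Pdgfrb and Meis1) and Aspa were named after their values were seen. A few genes that these rules would name are not reported here. Transcript GC content and length were taken from GENCODE M21 transcripts by symbol, for 95.87% of loci. Alternatives were pseudocounts of 0.1 and 3, FPKM minimums of 1 and 20 or none, median-ratio and quantile scaling, a GC correction (spline, 5 degrees of freedom), the library number as a block, all 9 libraries in the fit, no trend, loci of the X and Y chromosomes or marker lists left out, each library left out and, chosen after seeing the data, HET-1 alone against WT. Python 3.11.15 with pandas 2.3.3, numpy 2.4.6, scipy 1.17.1 and matplotlib 3.10.9 served for tables and plots.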

Additional observations from a re-analysis of the deposited data

How the results depend on the processing

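No locus passed an adjusted p of 0.05 in limma in the fit as reported, and 108 had an unadjusted p under 0.05. Leaving out 1 library gave 0 to 3 adjusted calls. They were Mir7-1 without HET-3, Snord35a, Snora21 and Mir5133 without WT-2 and Snora31 without WT-3, all small RNAs listed at 0 in some libraries. HET-1 alone against WT, an alternative chosen after seeing the data in which the lone library is assumed to vary like WT, gave 48 calls, 32 of them small RNA names. The 55 loci with a higher HET mean became 89 with the GC correction, 101, 23 and 284 with an FPKM minimum of 1, 20 or none, and 33 to 246 with a library left out. The 53 with a lower mean became 95, 21 and 211 with those minimums, 31 with all 9 libraries, 161 with HET-1 alone and 49 to 357 with a library left out. Of the 108 loci, 52 without WT-1, 55 without WT-3, 62 without HET-2 and 64 without HET-1 kept an unadjusted p under 0.05. All 108 kept their direction with any library left out, but this was largely fixed by their choice. HET and WT did not overlap at 40 of the 55 and 34 of the 53, where leaving out 1 library cannot turn the sign. With the library number as a replicate block, 96 loci were higher and 137 lower and the smallest adjusted p was 0.156. No label ties a number to a cross, so the numbers were not taken to pair the samples. Deviations of same-numbered HET and WT libraries from their group means had correlations of −0.197, −0.063 and 0.168. These values cannot show whether libraries share a cross, because the deviations also followed GC content. Over 126 named genes and 21 alternatives, 48 genes turned sign under at least 1 alternative, 44 of them with a reported difference smaller than its standard error. The other 4 were Unc5b without WT-1 (−0.36 to 0.0008 over the libraries left out), Acta1 without HET-3 (−0.13 to 2.28) and with HET-1 alone (−0.49), Mylpf with HET-1 alone (−0.031) and Eif2s3y with HET-1 alone (0.037). The cause of these shifts was not tested. Depth is unknown, so low loci carry an unknown counting error, and 3 libraries per genotype with a median standard error of 0.13 limit what could be called.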

Other observations

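Low levels of sex-linked RNA were present in the HET libraries of the opposite pattern. Xist was at 187 FPKM in HET-3 and 173 in MUT-1, and at 0.012 to 0.038 in the 5 WT and MUT libraries with Y-linked RNA, but at 1.10 in HET-1 and 1.25 in HET-2, which is 0.611% and 0.694% of the mean of the 2 high libraries. The 4 Y-linked genes summed to 1.03 FPKM in HET-3, 1.74% of the mean of the other libraries with Y-linked RNA, and to 0.0075 in MUT-1, or 0.0126%. Alb was at 1.83 FPKM in HET-1 and 4.77 in HET-3, against 0.213 to 1.197 in WT and 0.489, 1.02 and 3.30 in MUT. The source of these low levels was not tested.

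Among the loci at which HET-2 stood more than 2-fold above every other library were S100a8 and S100a9, which encode neutrophil proteins, and Klf1 and Slc4a1, which are expressed in red cell precursors.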
